A study of Mus musculus with 21 samples.

Results

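The collagen chain genes are the mouse genes whose symbols have the form Col, a type number, a and a chain number, and 44 of the 45706 gene rows of the deposited count table carry such a symbol. They encode the alpha chains of 27 collagen types and were sorted by the assembly their chains form: 11 fibrillar genes, 9 of the FACIT class (fibril-associated collagens with interrupted triple helices), 9 network-forming, 6 beaded-filament, 1 anchoring-fibril, 4 transmembrane and 2 multiplexin genes, with 2 that fit none of these. Their RNA was measured in 21 libraries from cultured mammary fibroblasts, in 7 groups of 3. One line of cells, labelled NF1, came from normal mammary glands of FVB/n mice, and the other, labelled CAF1, from a carcinoma of the MMTV-PyMT model, in which the mouse mammary tumour virus promoter drives the polyoma middle T oncogene in mammary epithelium. All cells were grown in DMEM with 10% fetal bovine serum, seeded at 60% confluence and transfected with siRNA at 100 nM, and RNA was taken 48 h later. The NF groups received control siRNA with vehicle, control siRNA with TGFβ1, or a pool of siRNAs against Hsp90aa1 or Hsp90ab1 with TGFβ1, given at 5 ng/mL for 43 h. The CAF groups received control siRNA or the same 2 pools, all with vehicle. There was no NF knockdown without TGFβ1 and no CAF group with it. Each kind of fibroblast is represented by a single numbered line, and the labels name no separate animals or cultures behind the replicates. The p-values therefore measure the spread between these libraries, which may be technical, and a difference between NF and CAF is a difference between 2 lines.

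Collagen molecules are triple helices of alpha chains. Type I, the main fibril collagen of connective tissue, is usually built from a pair of Col1a1 chains and a Col1a2 chain, and types III, V and XI mix into or seed the same fibrils. FACIT collagens sit on fibril surfaces, type IV forms the network of basement membranes, type VI forms beaded filaments around cells, and type VII forms the fibrils that anchor epithelium to the stroma. In the mammary gland and its tumours fibroblasts make much of the fibrillar collagen, and TGFβ1 is a known inducer of its genes. HSP90α and HSP90β, encoded by Hsp90aa1 and Hsp90ab1, are cytosolic chaperones that keep many signalling proteins in an active state.

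The promoter stretches of 4 members are shown, chosen among members with a matched RefSeq promoter. Col1a1, Col5a2 and Col12a1 had none and could not be shown. Col1a2 and Col3a1 stand for the abundant fibril chains. Col7a1 is a gene called with TGFβ1 and with siRNA against Hsp90aa1, and Col11a1 is the fibrillar gene that differed most between the lines. Each is the 250 bases before the RefSeq start of the gene in GRCm38.p6, from 5′ to 3′ on the plus strand, which is the coding strand for all 4. They lie at chr6:4505368-4505617 (Col1a2), chr1:45311288-45311537 (Col3a1), chr9:108953336-108953585 (Col7a1) and chr3:114030290-114030539 (Col11a1). None overlaps an exon of GENCODE vM21, in which the Col1a2 gene begins farther upstream, so that the Col1a2 stretch is intronic there. Capitals mark CAGAC (read as GTCTG on the other strand), the short sequence that SMAD proteins can bind, CCAAT (read as ATTGG) and TATAAA (read as TTTATA).
Col1a2: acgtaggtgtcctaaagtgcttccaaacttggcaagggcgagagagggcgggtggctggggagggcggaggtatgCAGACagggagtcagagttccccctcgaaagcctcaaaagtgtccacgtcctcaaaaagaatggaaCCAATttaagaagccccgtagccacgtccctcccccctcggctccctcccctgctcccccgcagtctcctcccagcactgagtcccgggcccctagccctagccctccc
Col3a1: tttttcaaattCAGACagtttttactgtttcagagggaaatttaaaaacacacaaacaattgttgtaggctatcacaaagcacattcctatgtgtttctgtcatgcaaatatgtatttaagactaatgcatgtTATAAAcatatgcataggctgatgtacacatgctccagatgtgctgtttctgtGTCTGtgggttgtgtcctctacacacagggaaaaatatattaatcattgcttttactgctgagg
Col7a1: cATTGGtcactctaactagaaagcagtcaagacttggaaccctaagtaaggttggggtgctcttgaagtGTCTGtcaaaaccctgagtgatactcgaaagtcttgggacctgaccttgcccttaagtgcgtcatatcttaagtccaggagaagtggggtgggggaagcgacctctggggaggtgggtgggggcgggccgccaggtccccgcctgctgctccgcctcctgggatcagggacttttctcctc
Col11a1: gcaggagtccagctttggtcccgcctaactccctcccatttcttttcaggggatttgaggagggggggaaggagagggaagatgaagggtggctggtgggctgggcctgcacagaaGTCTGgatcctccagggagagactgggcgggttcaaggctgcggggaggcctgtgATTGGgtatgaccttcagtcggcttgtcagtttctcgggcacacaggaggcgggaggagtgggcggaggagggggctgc

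All 4 stretches hold CAGAC on one strand or the other. In Col1a2 it ends 171 bases before the start, and Col3a1 holds it on both strands, ending 235 and 60 bases before the start. Col1a2, Col7a1 and Col11a1 also hold CCAAT on one strand, whereas Col3a1 does not and is the only one of the 4 with TATAAA. RefSeq promoters were matched for 35 of the 44 members, 3 of them with several starts, which gave 38 stretches. CAGAC occurred on either strand in 17 of these (44.7%) and in 42.2% of all 32851 promoters of the same length. CCAAT occurred in 34.2% of the member stretches and 33.8% of all promoters, TATAAA in 13.2% and 12.4%. The GC box GGGCGG (read as CCGCCC on the other strand) occurred in 57.9% of the member stretches and 32.7% of all promoters, and the AP-1 sequence TGAGTCA (read as TGACTCA) in 2.63% and 4.46%. In the 4 printed stretches no match overlapped a match of another of these motifs. These matches describe letters only and are no evidence of binding.

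The libraries held 35087180 to 70421576 estimated counts. In the libraries with siRNA against Hsp90aa1 its RNA averaged 12.4% of the control level in NF with TGFβ1 and 10.0% in CAF, and Hsp90ab1 averaged 13.3% and 9.96% with its own siRNA. The Hsp90ab1 pool also came with lower Hsp90aa1, at 48.1% of control in NF and 47.6% in CAF, while the Hsp90aa1 pool left Hsp90ab1 at 89.3% and 84.8%. Levels between genes are given in TPM (transcript abundance corrected for transcript length and scaled to the same total in every library). Of 8 fibroblast markers 5 averaged at least 1 TPM in every NF group and 6 in control CAF. Vim was highest in every group. Lum, a small proteoglycan that binds collagen fibrils, was under 0.1 TPM in all NF groups. Fap was also under 0.1 TPM in NF with TGFβ1 and control siRNA, and Fap and Thy1 in NF with TGFβ1 and the Hsp90ab1 pool. The summed level of 7 epithelial markers was 0.538 to 0.585 TPM in the vehicle NF libraries and 7.26 to 34.7 TPM in the control CAF libraries, most of it Krt19, with Epcam, Cdh1 and Krt5 under 0.1 TPM in every group. The 6 immune markers summed to between 4.08 and 6.39 TPM in both, with Ptprc, Adgre1 and Cd3e under 0.1 TPM. In each of these groups 2 of the 6 averaged at least 1 TPM. The highest was Cd68, at 3.05 TPM in vehicle NF and 4.24 TPM in control CAF. The 6 endothelial markers summed to 0.161 to 0.466 TPM in vehicle NF and 1.22 to 2.15 TPM in control CAF. The part of these markers in the collagen differences was not tested. In bulk RNA, more cells with a transcript and more of it per cell cannot be told apart.

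Collagen chain transcripts made up a small part of the NF transcriptome and a larger part of the CAF transcriptome. Their share of all transcripts, measured in TPM, was 0.307%, 0.355% and 0.486% in the 3 vehicle NF libraries, a mean of 0.383% ± 0.0924 (SD, n = 3). With TGFβ1 it was 0.804%, 0.909% and 1.14%, and in control CAF 1.9%, 2.04% and 2.53%. The 3 groups did not overlap, and the means of CAF and of NF with TGFβ1 were 5.63 and 2.49 times that of vehicle NF. An exact two-sided permutation test of 3 libraries against 3 cannot go below p = 0.1. Replicate 3 was the highest library in all 7 groups. With TGFβ1 and siRNA against Hsp90aa1 the NF share was 0.933% ± 0.163 (SD, n = 3), against 0.952% ± 0.174 with control siRNA, so the values overlapped. In CAF with siRNA against Hsp90aa1 it was 2.72%, 2.66% and 3.02%, all above the 3 control CAF libraries.

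**Figure D1:**
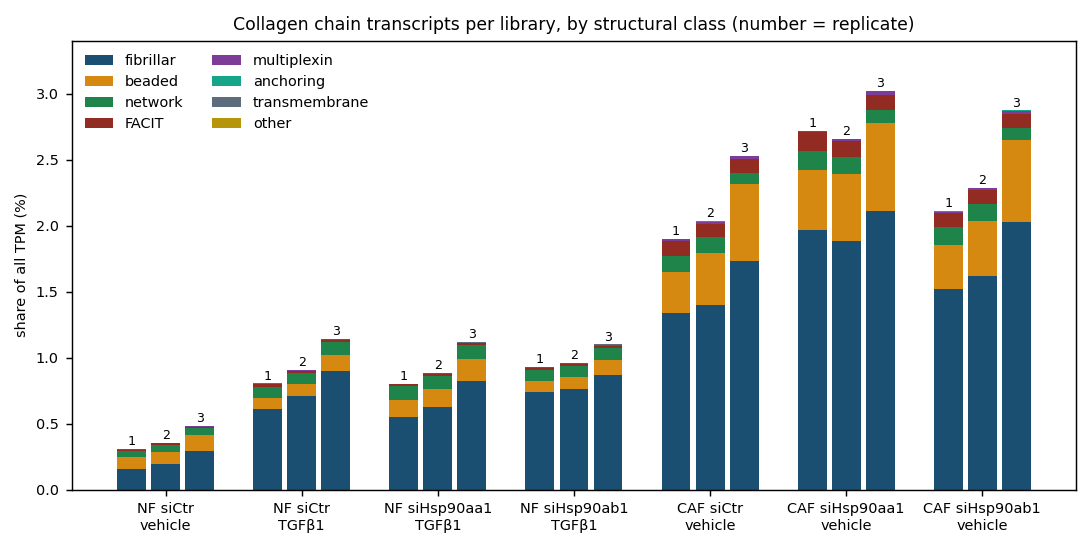
Share of all TPM (percent, y axis) taken by each class of collagen chain gene in each of the 21 libraries (x axis, grouped by condition, numbers are replicates), as stacked bars. The bars rise from between 0.307% and 0.486% in vehicle NF to between 0.804% and 1.14% with TGFβ1 and between 1.9% and 2.53% in control CAF, and fibrillar chains take the largest part of every bar.

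Fibrillar chains formed 55.9% ± 3.98 of all collagen TPM in vehicle NF, 77.4% ± 1.39 with TGFβ1 and 69.3% ± 1.2 in control CAF (SD, n = 3 each). The beaded-filament chains, nearly all type VI, took the second place at 26.4% ± 2.67, 10.4% ± 0.362 and 19.5% ± 3.54. The network chains took 13.9% ± 2.37, 9.58% ± 1.14 and 5.45% ± 1.78, and the FACIT chains 2.44% ± 0.338, 1.77% ± 0.285 and 4.96% ± 0.989. The share of fibrillar chains was thus lowest, and that of network chains highest, in vehicle NF. The anchoring, transmembrane and multiplexin classes each stayed under 1% in these 3 groups.

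By the highest group mean of each gene, 14 members were high (over 100 TPM), 6 moderate (10 to 100), 8 low (1 to 10) and 9 present in trace amounts (0.1 to 1). The other 7 stayed under 0.1 TPM in every group and were at or near the limit of detection at this depth. These were the FACIT genes Col9a1 and Col19a1, with 2 and 6 counts in all 21 libraries together, and the basement membrane genes Col4a3 and Col4a4, with 21 and 23. They also include the beaded-filament gene Col6a6 with 18 counts, the transmembrane gene Col13a1 with 1 and Col26a1, of no common class, with 6. The upper limit that a count of 0 allows in a library, 3 counts, corresponds to between 0.0426 and 0.0855 CPM (counts scaled to library size, with no correction for length) across the libraries. Trace members were the cartilage genes Col2a1 and Col9a2 and the minor fibrillar gene Col24a1. Also in trace amounts were Col20a1, Col10a1 (121 counts in all, known from hypertrophic cartilage), Col6a4, Col6a5, Col25a1 and Col28a1. A filter on low counts left 36 members to be tested, which were the 28 at or above 1 TPM and 8 of the 9 trace members, all but Col10a1. The counts and medians of members in each comparison cover these 36 only.

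Among fibrillar genes the type I chains were far above the rest. Col1a1 averaged 753 TPM in vehicle NF, 3030 TPM with TGFβ1 and 6320 TPM in control CAF, and Col1a2 averaged 912, 2350 and 5520 TPM. Col3a1, the type III chain, followed at 228, 524 and 1390 TPM, with Col5a1 at 124, 518 and 895 TPM and Col5a2 at 93.7, 481 and 669 TPM. Type V chains are known for starting type I fibrils and limiting their width. Col5a3 went another way, at 46.3 TPM in vehicle NF, 472 TPM with TGFβ1 and 79.9 TPM in control CAF. Col11a1 was at 0.0878 and 0.188 TPM in these NF groups and 27.4 TPM in control CAF, and the group means of Col11a2 and Col27a1 stayed under 10 TPM.

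Outside the fibrillar class, type VI and type IV were abundant in both lines. Col6a1 averaged 482 TPM in vehicle NF, 417 TPM with TGFβ1 and 1790 TPM in control CAF. Col4a1, which pairs with Col4a2 in the common basement membrane network, averaged 314, 569 and 640 TPM. Col12a1, a FACIT chain, averaged 12.1, 42.8 and 804 TPM and Col15a1, a multiplexin of the basement membrane zone, 2.58, 4.04 and 150 TPM. Col7a1, the only anchoring-fibril chain, averaged 3.17, 20.3 and 10.5 TPM. Col23a1, a transmembrane collagen, ran against most of the family at 31.2, 9.32 and 0.53 TPM, and Col28a1 stayed between 0.449 and 0.813 TPM in all 7 groups. Between neighbours in these orders many means lay within the spread of the libraries, such as Col5a1 and Col5a2 in NF with TGFβ1.

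**Figure D2:**
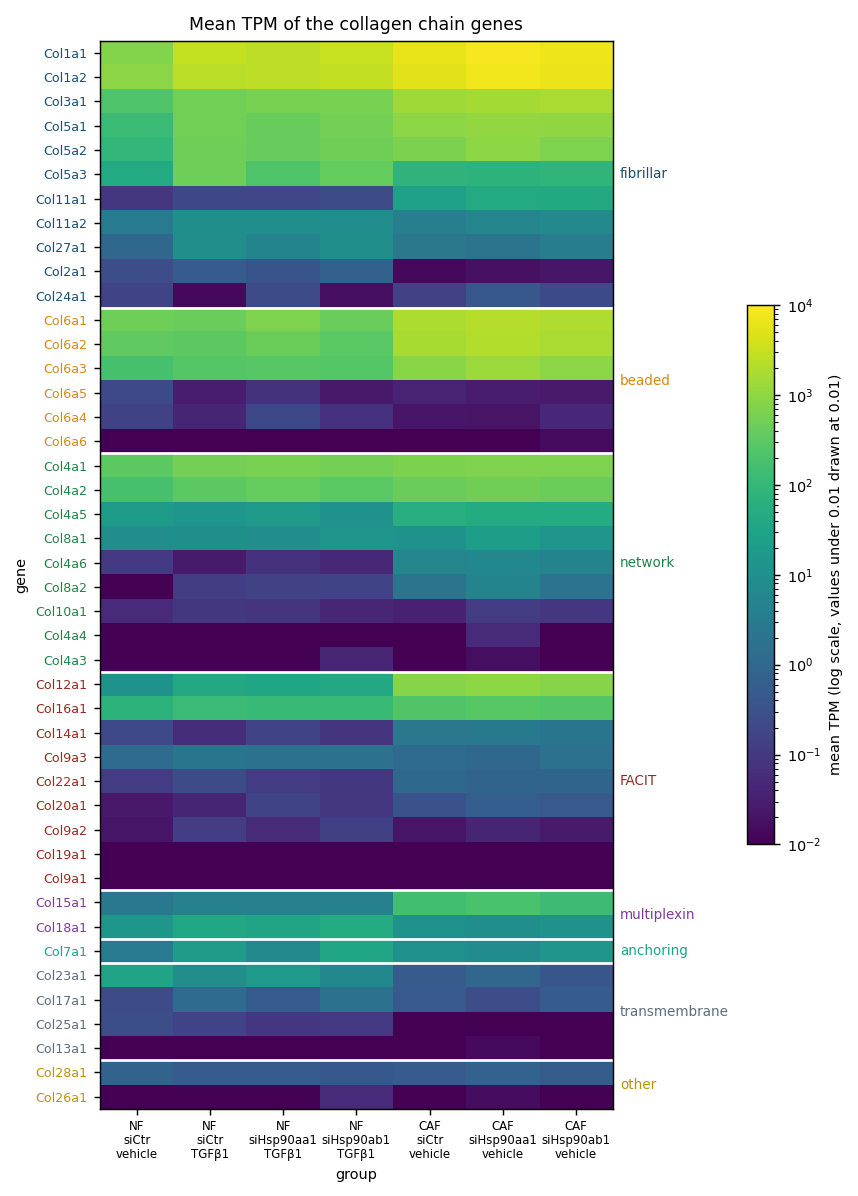
Mean TPM (colour, log scale with a floor of 0.01 TPM) of the 44 collagen chain genes (rows, by class) in the 7 groups (columns, n = 3 each). Brighter colour means a higher level. Col1a1, Col1a2, Col3a1, Col4a1, Col4a2, Col6a1, Col6a2 and Col6a3 are bright in all columns. Col11a1, Col12a1 and Col15a1 brighten in the CAF columns and Col23a1 darkens there. The 7 genes under 0.1 TPM are dark throughout.

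The balance of chains that assemble together could be compared within a library. The TPM ratio of Col1a1 to Col1a2 was 0.98, 0.796 and 0.77 in vehicle NF and 1.34, 1.23 and 1.3 with TGFβ1, so the 2 groups did not overlap. With TGFβ1 and siRNA against Hsp90aa1 it was 0.963, 0.913 and 1.05, below all 3 control libraries with TGFβ1, and in control CAF it averaged 1.15 ± 0.0383 (SD, n = 3). The ratio of Col4a1 to Col4a2 averaged 1.77 ± 0.24 in vehicle NF and 1.54 ± 0.0287 in control CAF, with overlapping libraries. That of Col6a1 to Col6a2 averaged 1.41 ± 0.107 and 1.1 ± 0.0184. The 5′ ends of Col4a1 and Col4a2 overlap on opposite strands of chromosome 8, and the sources used here do not say whether the counting used strand.

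The first comparison asks how the tumour-derived line differs from the normal line, with control siRNA and vehicle in both. Most tested collagen genes stood higher in CAF. Among members with at least 5 CPM in a group the largest differences in this direction were in Col11a1, Col12a1, Col15a1 and Col4a6, and Col1a1, Col1a2, Col3a1, Col5a1, Col5a2 and the 3 abundant type VI genes were higher as well. Of the 36 tested members 23 were higher and 5 lower in CAF (edgeR quasi-likelihood test, Benjamini-Hochberg adjusted p under 0.05), against 31.6% and 30.0% of all 15230 tested genes. The median log2 fold change was 1.51 over the members and -0.00 over all genes. Of the 20 members with at least 10 TPM in a group 16 were higher and 1 lower. Of the 16 under 10 TPM in every group 7 were higher and 4 lower. Those 4 (Col2a1, Col6a4, Col6a5 and Col25a1) had at most 9 counts in a control CAF library. They passed the count filter through NF libraries, so their direction is not independent of the filter.

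Col1a1 stood at 2210, 2240 and 2980 CPM in vehicle NF and at 18400, 18700 and 22300 CPM in control CAF. The lines did not overlap, and the log2 fold change was 3.00 (SE 0.17, adjusted p = 4.1e-11). Col1a2 went from 1960, 2460 and 3390 CPM to 13800, 14100 and 17800 CPM, a log2 fold change of 2.55 (SE 0.19, adjusted p = 1.7e-09). Col3a1 went from 336, 342 and 767 CPM to 2440, 2270 and 3700 CPM, by 2.54 on the log2 scale (SE 0.31, adjusted p = 1.5e-06). Replicate 3 was the highest library for each of these genes in both lines. Col5a1 and Col5a2 were higher by 2.79 and 2.76 on the log2 scale, and 8 of the 11 fibrillar genes were higher in all. Of these 8, Col11a2 (0.45, adjusted p = 0.0369) had overlapping libraries. Its call was lost without NF replicate 1 or 2 or CAF replicate 2 or 3 (adjusted p = 0.074 to 0.245). It was also lost with only the groups compared (adjusted p = 0.12). Col5a3 did not pass (log2 fold change 0.72, adjusted p = 0.089), although it did with the replicate number as a block (0.66, adjusted p = 0.00424). The fibrillar member that was lower was Col2a1, the main chain of cartilage fibrils, at 0.629 to 0.763 CPM in NF and at most 0.0764 CPM in CAF.

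Col11a1, a minor fibrillar chain often used as a marker of carcinoma stroma, was low in NF, at 0.248, 0.314 and 0.553 CPM. In CAF it stood at 101, 102 and 120 CPM, a log2 fold change of 8.18 (SE 0.22, adjusted p = 5.3e-15). Col12a1 went from 61.4, 65.4 and 61.6 CPM to 4340, 3750 and 3740 CPM, by 5.97 on the log2 scale (SE 0.16, adjusted p = 5.3e-15). Both separated the lines without overlap in every replicate. Among the 7 tested FACIT genes 5 were higher in CAF, and they include Col14a1, at 0.298 to 0.439 CPM in NF and 2.83 to 12.1 CPM in CAF (log2 fold change 4.16, SE 0.68, adjusted p = 3.6e-05). Col14a1 varied more within CAF than Col12a1 did, with replicate 3 far above the others.

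All 3 abundant type VI genes were higher in CAF, with log2 fold changes of 1.82 for Col6a1, 2.17 for Col6a2 and 2.49 for Col6a3. Col6a1 stood at 1040, 967 and 1250 CPM in vehicle NF and 2770, 3470 and 5280 CPM in control CAF (SE 0.24, adjusted p = 2.9e-06). The trace members Col6a4 and Col6a5 were lower in CAF, by -2.28 and -3.77 on the log2 scale. Of 6 tested network genes 5 were higher, and Col8a1 was not called (0.42, adjusted p = 0.0515), though it passed with the replicate block (adjusted p = 0.0446) and with DESeq2 (adjusted p = 0.0465). Col4a6 went from 0.248, 0.404 and 0.515 CPM to 17.5, 19 and 19.8 CPM, by 5.60 on the log2 scale (SE 0.19, adjusted p = 5.4e-14), while its neighbour on chromosome X, Col4a5, differed by 1.65. Col4a1 went from 1030, 1270 and 1160 CPM to 2580, 2480 and 1680 CPM (log2 fold change 0.96, SE 0.17, adjusted p = 9.8e-05), and here replicate 3 was the lowest CAF library. Col8a2, a short network chain, had 0, 0 and 2 counts in vehicle NF and 3.95, 3.37 and 6.7 CPM in CAF.

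In the smaller classes the directions were mixed. Col7a1 was higher in CAF by 1.37 on the log2 scale (SE 0.21, adjusted p = 1.9e-05), from 4.73, 4.38 and 3.74 CPM to 8.55, 12.1 and 12.8 CPM. Col15a1 went from 7.94, 5.93 and 8.3 CPM to 202, 347 and 643 CPM, by 5.75 (SE 0.57, adjusted p = 8.1e-08), with a wide spread among the CAF libraries. Col18a1, the other multiplexin and the source of endostatin, did not pass, at -0.10. Col23a1 stood at 87.3, 92.8 and 112 CPM in NF and 1.23, 0.807 and 2.73 CPM in CAF, a log2 fold change of -5.90 (SE 0.49, adjusted p = 8.9e-09). The transmembrane Col25a1 had 24, 28 and 57 counts in NF and 0, 0 and 1 in CAF. Col28a1 did not pass (-0.64).

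The second comparison shows the response of the normal line to TGFβ1 against vehicle. Fibrillar collagen genes rose, with the 3 type V chains and the type I chains among them, and so did the anchoring-fibril gene Col7a1, whereas type VI genes did not pass or fell. Of 36 members 19 were higher and 6 lower with TGFβ1, against 14.6% and 14.4% of all tested genes. The median log2 fold change was 0.99 over the members and -0.03 over all genes. Vehicle NF is the reference in both this comparison and the first.

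Col5a3 rose most among the more abundant members, from 130, 133 and 198 CPM to 1510, 1340 and 1740 CPM, a log2 fold change of 3.31 (SE 0.39, adjusted p = 4.8e-06). Col5a2 went from 280, 333 and 418 CPM to 1630, 1620 and 1850 CPM, by 2.31 (SE 0.13, adjusted p = 1.0e-09), and Col5a1 by 2.02 (SE 0.22, adjusted p = 2.1e-06). No vehicle library of the type V genes reached a TGFβ1 library. Col1a1 rose to 8140, 9120 and 11400 CPM, by 1.95 on the log2 scale (SE 0.16, adjusted p = 6.7e-08). Col1a2 rose to 5360, 6520 and 7730 CPM, by 1.33 (SE 0.18, adjusted p = 2.4e-05), and Col3a1 to 1020, 1000 and 1230 CPM, by 1.16 (SE 0.30, adjusted p = 0.00691). The 2 type I chains thus did not move by the same factor, as the chain ratio above also shows. Col27a1, a fibrillar collagen known from cartilage, went from 3.18, 2.61 and 5 CPM to 29, 25.3 and 35.1 CPM, by 3.05 (SE 0.26, adjusted p = 1.0e-07).

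In all, 9 of 11 fibrillar genes rose, and 1 fell. The one that fell was Col24a1, with 25, 25 and 41 counts with vehicle and 1, 3 and 3 with TGFβ1 (adjusted p = 2.5e-05). Col2a1 did not pass (1.07, adjusted p = 0.0654), but did with the replicate block (adjusted p = 0.0422) and with DESeq2 (adjusted p = 0.0104). Of the fibrillar calls Col11a1 was lost without vehicle replicate 1 (adjusted p = 0.0518) and with only the groups compared (adjusted p = 0.0578). Its level was low in both groups, with 15, 14 and 29 counts with vehicle and 36, 42 and 30 with TGFβ1.

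Col7a1, the anchoring-fibril chain, went from 4.73, 4.38 and 3.74 CPM to 49.6, 28.9 and 42.5 CPM, a log2 fold change of 3.23 (SE 0.22, adjusted p = 6.7e-09). Col12a1 rose by 1.73, to 181, 214 and 229 CPM, and Col4a1 and Col4a2 rose by 0.81 and 0.80 on the log2 scale. Col18a1 rose by 1.44, and the transmembrane Col17a1, a hemidesmosome collagen of epithelia, rose by 2.12. The vehicle libraries of Col17a1 were low, between 0.572 and 0.651 CPM, and its mean with TGFβ1 was 2.64 CPM. The abundant type VI genes were not called: Col6a1 at -0.26, Col6a2 at -0.21 and Col6a3 at 0.56 (adjusted p = 0.102, or 0.000724 with the replicate block). Col23a1 fell by 1.79 on the log2 scale, to 23.8, 26.5 and 34.3 CPM (SE 0.39, adjusted p = 0.00202). Also lower were Col4a6 (-1.91), Col6a4 (-1.48), Col6a5 (-2.48) and Col4a5 (-0.45). The call on Col4a5 was lost without vehicle replicate 3 or TGFβ1 replicate 1 or 2 (adjusted p = 0.0789 to 0.202). The call on Col6a4 was lost without vehicle replicate 3 or TGFβ1 replicate 2 (adjusted p = 0.0702 to 0.0964).

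The third comparison sets vehicle-treated CAF directly against NF with TGFβ1. It shares its CAF libraries with the first and its NF libraries with the second. Of 36 members 20 were higher and 10 lower in CAF, against 30.0% and 28.9% of all tested genes, with a median log2 fold change of 0.61 over the members and -0.01 over all genes. Of the 20 with at least 10 TPM in a group 14 were higher and 4 lower, and of the 16 under it 6 and 6. TGFβ1-treated NF stayed below CAF for several abundant chains: Col1a1 was higher in CAF by 1.05, Col1a2 by 1.22, Col3a1 by 1.38 and Col5a2 by 0.46 on the log2 scale. The gap was wider for Col11a1 (7.10), Col12a1 (4.24), Col15a1 (5.32), Col14a1 (5.25) and Col4a6 (7.51). The abundant type VI genes were higher in CAF as well, by 2.08 for Col6a1, 2.38 for Col6a2 and 1.93 for Col6a3. The abundant network gene Col4a1 did not pass (0.15, adjusted p = 0.472), with overlapping libraries.

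Another group of members stood higher in TGFβ1-treated NF than in CAF. Col5a3, at 1510, 1340 and 1740 CPM in NF with TGFβ1, stood at 147, 225 and 391 CPM in CAF, a log2 fold change of -2.59 (SE 0.38, adjusted p = 1.1e-05). Col7a1 was lower in CAF by -1.86 (SE 0.20, adjusted p = 3.6e-07), Col27a1 by -1.98 and Col18a1 by -1.54. Col23a1 was lower in CAF by -4.11, so its level in NF with TGFβ1 lay between those of vehicle NF and CAF. All 3 tested transmembrane genes were lower in CAF here, but 2 of them were scarce. Col25a1 had 0, 0 and 1 counts in control CAF and passed the count filter through NF libraries. Col17a1 averaged 0.926 CPM in CAF and 2.64 CPM in NF with TGFβ1. Col13a1, the other gene of this class, was not tested.

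**Figure D3:**
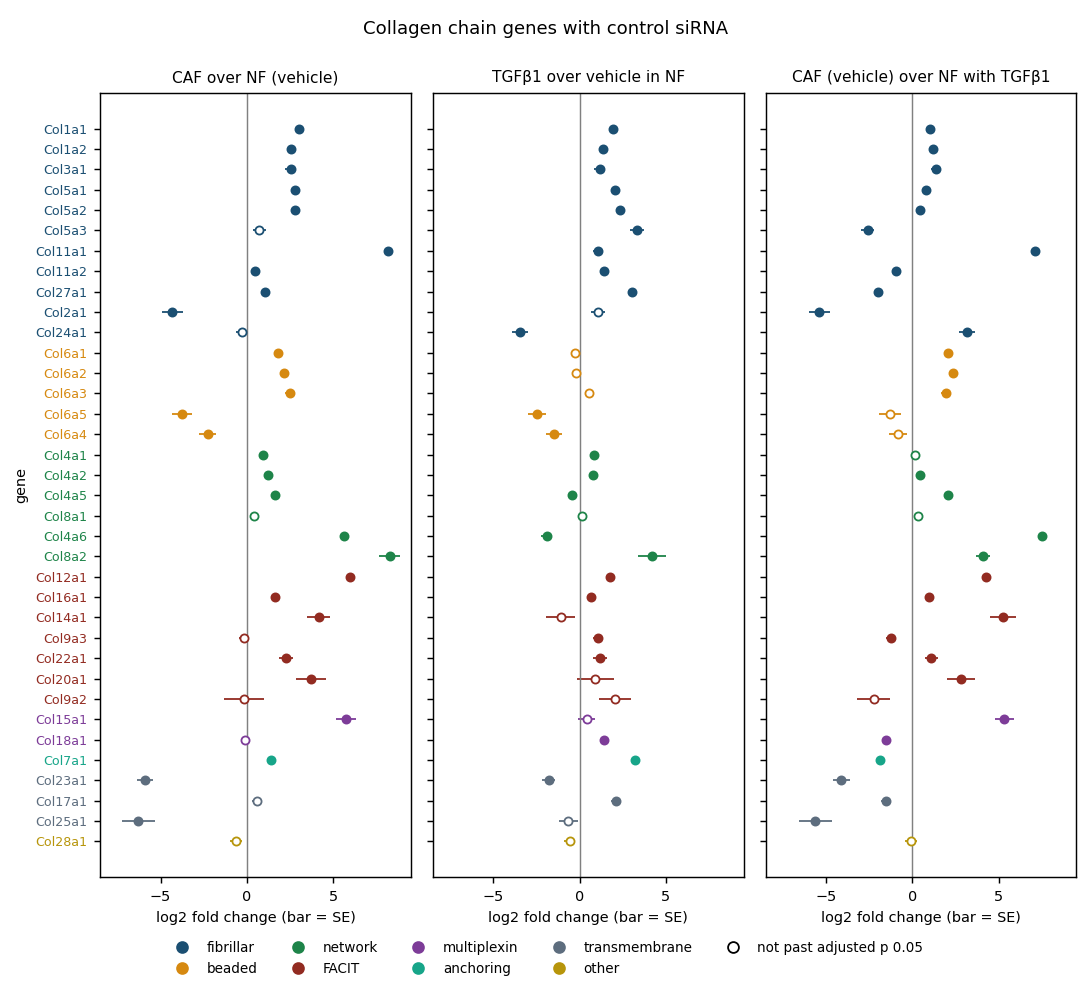
Log2 fold change with SE (x axis) of each tested collagen chain gene (rows, by class) in 3 comparisons: control CAF over vehicle NF, TGFβ1 over vehicle in NF, and control CAF over NF with TGFβ1. Filled points passed an adjusted p of 0.05 and open ones did not. Col11a1, Col12a1 and Col15a1 lie far to the right in both panels with CAF, and Col5a3, Col7a1 and Col27a1 lie to the right in the second and to the left in the third.

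The next comparisons ask what loss of Hsp90aa1 or Hsp90ab1 RNA does to collagen genes, each set against control siRNA in the same line and treatment. In NF with TGFβ1, siRNA against Hsp90aa1 came with lower Col7a1, Col5a3 and Col27a1 and with higher Col6a1. The control libraries here are the TGFβ1 libraries of the second comparison, so the 2 comparisons are not independent. Of 36 members 5 were higher and 4 lower, against 14.8% and 13.5% of all tested genes, which is close to the background. Over the members the median log2 fold change was 0.04, against 0.01 over all genes. With the replicate number as a block the counts were 8 and 7.

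Col7a1 stood at 49.6, 28.9 and 42.5 CPM with control siRNA and at 12.7, 11.2 and 13.9 CPM with siRNA against Hsp90aa1. The groups did not overlap, and the log2 fold change was -1.68 (SE 0.20, adjusted p = 1.9e-05). Col5a3 went from 1510, 1340 and 1740 CPM to 605, 638 and 1010 CPM, by -1.03 (SE 0.36, adjusted p = 0.0406). Col27a1 went from 29, 25.3 and 35.1 CPM to 11.7, 15.4 and 22.5 CPM, by -0.85 (SE 0.24, adjusted p = 0.0124). All 3 remained above vehicle NF in every library. Col17a1 was lower by -0.78 (adjusted p = 0.0408), from a level under 4 CPM.

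Among the beaded-filament genes the calls were in the other direction. Col6a1 rose from 832, 819 and 1060 CPM to 1430, 1390 and 1730 CPM, a log2 fold change of 0.75 (SE 0.23, adjusted p = 0.0226), and the trace members Col6a4 and Col6a5 rose by 1.86 and 1.48. Col6a5 was lost with DESeq2 (adjusted p = 0.0619). Col6a2 did not pass (0.59, adjusted p = 0.0863, or 0.00261 with the block). Nor did Col6a3, the other abundant type VI gene (0.13, adjusted p = 0.75), and its libraries overlapped. Col24a1 had 1, 3 and 3 counts with control siRNA and 46, 28 and 28 with siRNA against Hsp90aa1 (adjusted p = 2.4e-05), a level like that of vehicle NF. Col4a6 rose by 1.33 but stayed under 0.3 CPM. The transmembrane Col23a1 was at 52.2, 49.1 and 64.1 CPM against 23.8, 26.5 and 34.3 CPM, which did not pass (0.97, adjusted p = 0.0687) except with the block (0.98, adjusted p = 0.0021).

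The main fibril chains showed no call here in the main fit, which leaves out the replicate number. Col1a1 stood at 6810, 7240 and 10200 CPM against 8140, 9120 and 11400 CPM with control siRNA, groups that overlapped (log2 fold change -0.25, SE 0.16, adjusted p = 0.259). Within each replicate number Col1a1 was lower with the knockdown. With the replicate block the same difference of -0.25 passed (adjusted p = 0.0294). Col5a1 did not pass in the main fit (-0.31, adjusted p = 0.298) and was lower with the block (-0.32, SE 0.08, adjusted p = 0.0032). Col1a2 was at 0.15 and Col3a1 at 0.29 on the log2 scale. Leaving out 1 library ended several of these calls. Col5a3 did not pass without any 1 of the 3 control libraries or of the knockdown replicates 1 and 2 (adjusted p = 0.0542 to 0.145). Col27a1 did not pass without control replicate 3 or knockdown replicate 1 (adjusted p = 0.0551 and 0.0757). Col6a1 did not pass without control replicate 1 or 2 or knockdown replicate 3 (adjusted p = 0.0776 to 0.0839). Col4a6 did not pass without control replicate 3 (adjusted p = 0.064), and Col17a1 and Col6a5 were each lost in several such fits (adjusted p = 0.0563 to 0.175). Col7a1, Col24a1 and Col6a4 were called in every fit that left out a library.

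In CAF, siRNA against Hsp90aa1 came with higher collagen RNA, in Col8a1, Col8a2, Col11a1, Col5a2 and both type I chains. Of 36 members 7 were higher and none was lower by edgeR, against 12.5% and 12.9% of all tested genes. The count of lower members was also 0 at an unadjusted p under 0.05 and 0 with DESeq2, and with the replicate block 13 were higher and 1 lower. The median log2 fold change was 0.34 over the members and 0.03 over all genes.

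The network chains of type VIII, short collagens of vessel walls and of the Descemet membrane, moved most. Col8a1 stood at 33.3, 34.9 and 30.6 CPM with control siRNA and 59.8, 64.3 and 72.2 CPM with siRNA against Hsp90aa1, a log2 fold change of 0.99 (SE 0.18, adjusted p = 0.000636). Col8a2 went from 3.95, 3.37 and 6.7 CPM to 11.2, 10.4 and 13.9 CPM, by 1.34 (SE 0.32, adjusted p = 0.0049). Neither gene's groups overlapped. Col11a1 went from 101, 102 and 120 CPM to 188, 182 and 203 CPM, by 0.83 (SE 0.15, adjusted p = 0.000543), and Col5a2 from 2350, 2230 and 2420 CPM to 3450, 3310 and 3590 CPM, by 0.56 (SE 0.12, adjusted p = 0.00292).

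Col1a1 stood at 29300, 26700 and 29100 CPM with siRNA against Hsp90aa1, above the 18400, 18700 and 22300 CPM of the controls (log2 fold change 0.52, SE 0.16, adjusted p = 0.021). Col1a2 stood at 22300, 21100 and 23300 CPM (0.54, SE 0.18, adjusted p = 0.0322) and Col12a1 at 5790, 5040 and 4450 CPM (0.37, SE 0.13, adjusted p = 0.0493). Of these, Col1a1 was lost without control replicate 1 or 2 or knockdown replicate 1 or 3 (adjusted p = 0.0602 to 0.0904). Col1a2 was lost without control replicate 1 or 2 or any 1 of the knockdown libraries (adjusted p = 0.0561 to 0.129), and Col12a1 without any control library or knockdown replicate 1 or 2 (0.0541 to 0.217). Without control replicate 1 or 2 or knockdown replicate 1 the count of higher members was 4. Col3a1 (0.24), Col7a1 (-0.26) and Col5a3 (0.00) did not pass. The type VI gene Col6a3 passed with the block (0.66, adjusted p = 0.000152) and with DESeq2 (0.62, adjusted p = 0.038) but not in the main fit. The block also called Col6a1 (0.39, adjusted p = 0.0108), Col6a2 (0.38, adjusted p = 0.035) and Col5a1 (0.34, adjusted p = 0.00245) higher. It added Col16a1 (0.28, adjusted p = 0.0495) and Col23a1 (0.81, adjusted p = 0.0452) as higher. The lower member under the block was Col18a1 (-0.33, adjusted p = 0.0264).

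siRNA against Hsp90ab1 left nearly all members without a call. In NF with TGFβ1 none of the 36 was called in either direction by edgeR, against 1.06% of all tested genes higher and 1.62% lower. At an unadjusted p under 0.05 there were 2 higher and 2 lower, and DESeq2 called 1 higher and 0 lower. That gene was Col7a1, at 79.5, 61 and 58.6 CPM against 49.6, 28.9 and 42.5 CPM in the controls (log2 fold change 0.72, SE 0.20, adjusted p = 0.0573 by edgeR and 0.0132 by DESeq2, and 0.0384 with the replicate block). All 3 knockdown libraries were above all 3 controls. The median log2 fold change was 0.01 over the members and -0.01 over all genes.

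In CAF with siRNA against Hsp90ab1, 1 member was higher and 0 were lower by edgeR, against 0.466% and 0.433% of all tested genes. At an unadjusted p under 0.05 there were 4 higher and 1 lower, and DESeq2 likewise called 1 and 0. The called gene was Col11a1, at 141, 164 and 207 CPM against 101, 102 and 120 CPM (log2 fold change 0.66, SE 0.15, adjusted p = 0.0367). It was lost without any 1 of the control libraries or of knockdown replicates 2 and 3 (adjusted p = 0.0583 to 0.202). Col1a1 stood at 20200, 21000 and 24400 CPM, which overlaps the control range. The median log2 fold change was 0.09 over the members and -0.00 over all genes.

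**Figure D4:**
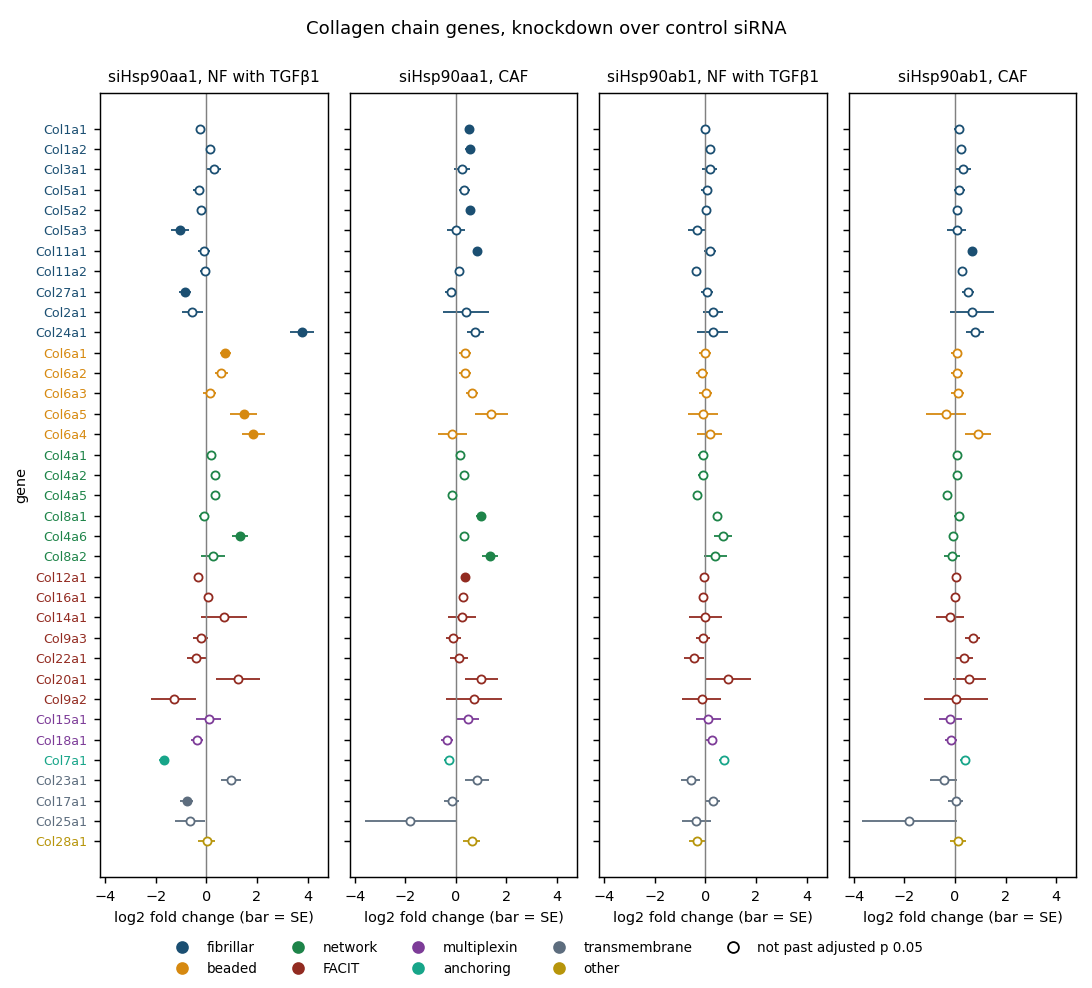
Log2 fold change with SE (x axis) of each tested collagen chain gene (rows, by class) for siRNA against Hsp90aa1 or Hsp90ab1 over control siRNA, in NF with TGFβ1 and in CAF. Filled points passed an adjusted p of 0.05 and open ones did not. The 2 Hsp90aa1 panels have 9 and 7 filled points, and the 2 Hsp90ab1 panels 0 and 1.

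The 2 siRNA pools were also set against each other, which removes the shared control. In NF with TGFβ1, 8 members were higher and 5 lower with the Hsp90aa1 pool than with the Hsp90ab1 pool, against 17.7% and 16.4% of all tested genes, with 8 and 9 under the replicate block. The medians were 0.01 over the members and 0.01 over all genes. Col7a1 differed most among the more abundant members, at 12.7, 11.2 and 13.9 CPM against 79.5, 61 and 58.6 CPM, a log2 fold change of -2.40 (SE 0.21, adjusted p = 2.5e-07). Col27a1 was lower by -0.91 (SE 0.24, adjusted p = 0.00656), and Col5a3 did not pass (-0.69, adjusted p = 0.152). Col23a1 was higher with the Hsp90aa1 pool, at 52.2, 49.1 and 64.1 CPM against 13.9, 16.1 and 26.2 CPM (1.56, SE 0.39, adjusted p = 0.00501), and so were Col6a1 (0.78, adjusted p = 0.0148) and Col6a2 (0.72, adjusted p = 0.0325). Col6a1 was lost without Hsp90aa1 replicate 3 or Hsp90ab1 replicate 1 or 2 (adjusted p = 0.058 to 0.0635). Col6a2 was lost in those same 3 fits and without Hsp90aa1 replicate 1 (adjusted p = 0.054 to 0.118).

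In CAF, 5 members were higher and 2 lower with the Hsp90aa1 pool than with the Hsp90ab1 pool, against 13.1% and 13.3% of all tested genes, with 10 and 3 under the block. The medians were 0.25 over the members and 0.02 over all genes. Col8a2 (1.47, adjusted p = 0.00273), Col8a1 (0.83, adjusted p = 0.00245) and Col5a2 (0.50, adjusted p = 0.00666) were higher with the Hsp90aa1 pool. Col27a1 (-0.72, adjusted p = 0.0383) and Col7a1 (-0.66, adjusted p = 0.0233) were lower. Col7a1 was thus lower with the Hsp90aa1 pool than with the Hsp90ab1 pool in both lines, though in CAF this was lost without Hsp90aa1 replicate 1 or Hsp90ab1 replicate 2 or 3 (adjusted p = 0.0542 to 0.0981). Col27a1 in CAF was lost without any 1 Hsp90aa1 library or Hsp90ab1 replicate 1 or 3 (adjusted p = 0.0602 to 0.119).

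Whether the Hsp90aa1 pool acted differently in the 2 settings was tested as the difference of its effects, CAF minus NF with TGFβ1. The line and the TGFβ1 treatment change together in this contrast and cannot be told apart. Of 36 members 4 had a higher effect in CAF and 1 a lower one, against 2.44% and 3.02% of all tested genes, and 10 and 2 with the replicate block. The medians were 0.28 over the members and 0.01 over all genes. The effect differed by 1.42 for Col7a1 (SE 0.29, adjusted p = 0.00795), by 1.10 for Col8a1 (SE 0.25, adjusted p = 0.0157), by 0.77 for Col5a2 (SE 0.18, adjusted p = 0.0145) and by 0.69 for Col12a1 (SE 0.19, adjusted p = 0.0387). Col24a1 differed by -3.01 (SE 0.60, adjusted p = 0.00693), a value that rests on the 1, 3 and 3 counts of the NF controls. Col1a1, at 0.76 (SE 0.22), just missed the threshold (adjusted p = 0.0514) and passed with DESeq2 (0.75, adjusted p = 0.0172) and with the block (0.78, adjusted p = 0.000687). The Col12a1 call was lost without any of 7 libraries, which were NF control replicates 2 and 3, NF knockdown replicate 1, CAF control replicates 2 and 3 and CAF knockdown replicates 1 and 2 (adjusted p = 0.0739 to 0.112). For the Hsp90ab1 pool no member's effect differed by edgeR, against 0.00657% of all tested genes with a higher effect and 0.0% with a lower one. At an unadjusted p under 0.05 there was 1 higher and 0 lower, and DESeq2 called 0 in each direction. The medians were 0.11 over the members and 0.00 over all genes.

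**Figure D5:**
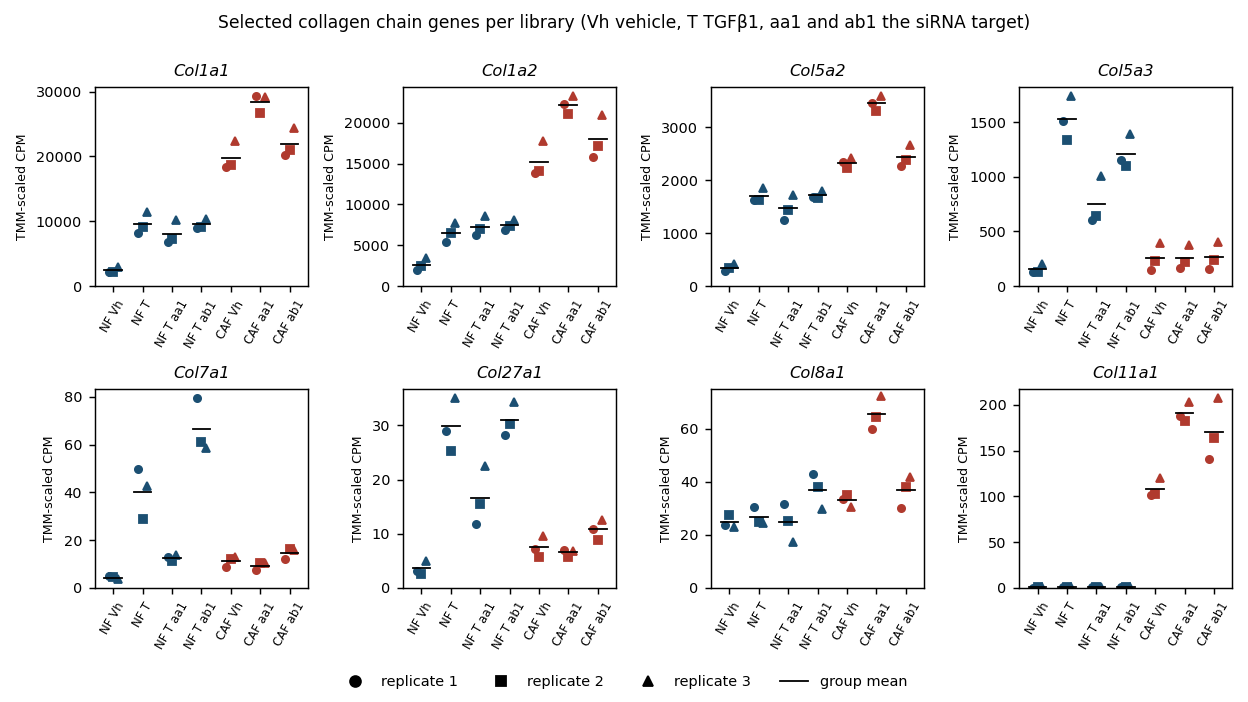
CPM (y axis, linear scale) of 8 collagen chain genes in each of the 21 libraries, by group (x axis). NF is in blue and CAF in red, with marker shapes for replicates 1 to 3 and a line at each group mean. Col5a3, Col7a1 and Col27a1 are high in NF with TGFβ1 and control siRNA and lower with siRNA against Hsp90aa1 there. Col7a1 is highest in NF with siRNA against Hsp90ab1. The group means of Col8a1 and Col11a1 are highest in CAF with siRNA against Hsp90aa1.

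Genes whose products fold, process, bind or break down collagen were followed from 5 lists. Of all tested genes 31.6% were higher and 30.0% lower in CAF than in vehicle NF, and 14.6% and 14.4% with TGFβ1. With siRNA against Hsp90aa1 the shares were 12.5% and 12.9% in CAF and 14.8% and 13.5% in NF with TGFβ1. In collagen maturation, which covers prolyl and lysyl hydroxylases, chaperones and export factors, 16 of 21 tested genes were higher in CAF than in vehicle NF, and 15 were higher and 1 lower with TGFβ1. The prolyl hydroxylase genes P4ha3 and P3h3 were higher in CAF by 3.72 and 2.39 on the log2 scale. With TGFβ1 the export gene Sec24d rose by 0.87 and the prolyl hydroxylase P3h2 fell by 2.37. With siRNA against Hsp90aa1 9 of the 21 were higher in CAF, such as Mia3, which loads procollagen into transport carriers (0.51, adjusted p = 0.000163), and the lysyl hydroxylase Plod2 (1.11, adjusted p = 0.00373), and 4 were higher in NF with TGFβ1. The 4 in NF lie close to the share of all tested genes. The effect on Plod2 differed between the settings by 1.44 (SE 0.36, adjusted p = 0.0244).

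Of the 12 tested genes of propeptide processing and crosslinking, 11 were higher in CAF than in vehicle NF, with Loxl2 by 8.92 and Lox by 2.60, both lysyl oxidases that crosslink collagen. TGFβ1 came with 5 higher and 1 lower, among them Lox (2.07) and the C-proteinase gene Bmp1 (1.85). siRNA against Hsp90aa1 came with 3 higher and 1 lower in CAF, where Lox rose by 0.93 (adjusted p = 0.000134), and with 5 higher and 2 lower in NF, where Loxl3 rose by 0.78 and Pcolce2, an enhancer of C-propeptide removal, fell by 0.97. The effect on Lox differed between the settings by 1.09 (SE 0.19, adjusted p = 0.00373) and that on Loxl2 by 1.36 (SE 0.33, adjusted p = 0.0217).

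All 7 receptor genes were higher in CAF than in vehicle NF, led by the integrin chains Itga2 (6.40) and Itga11 (4.25), and 2 were higher and 1 lower with TGFβ1. Itga2 rose by 2.93 with TGFβ1 and by 1.04 with siRNA against Hsp90aa1 in CAF. In NF with TGFβ1 that siRNA gave -0.68 for Itga2 (adjusted p = 0.0828), and the effect differed between the settings by 1.72 (SE 0.36, adjusted p = 0.0104). Of 5 tested collagenase and gelatinase genes 4 were higher and 1 lower in CAF, with the collagen-degrading protease genes Ctsk and Mmp2 higher by 6.91 and 4.07, and 2 were higher with TGFβ1. Among 10 fibril-binding genes 6 were higher and 1 lower in CAF, with Bgn at 1.78 and Sparc at 1.67, and 5 were higher and 4 lower with TGFβ1. Ogn, a small leucine-rich proteoglycan, fell by 2.85 with TGFβ1 and rose with siRNA against Hsp90aa1 by 2.34 in NF and 1.47 in CAF. Between CAF and vehicle NF the median log2 fold changes were 0.76 for maturation, 1.18 for processing, 1.27 for receptors, 2.83 for collagenases and 1.54 for fibril-binding genes. With TGFβ1 the medians in the same order were 0.57, 0.60, 0.25, 0.29 and -0.10, and the mean of the collagenase list had the other sign (-0.04). The shares of all tested genes called in these comparisons are those given ahead of the lists. With siRNA against Hsp90ab1 no gene of the lists was called in CAF. In NF with TGFβ1 only Pcolce2 was, higher by 0.83 (edgeR, adjusted p = 0.0345).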

How the data were processed

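Stranded mRNA libraries were made from total RNA with a TruSeq kit, per the labels. The authors deposited expected counts per gene from Salmon, with STAR also named and GRCm38 as the build, per the submitters' processing notes; the sources used here give no versions. A second deposited table holds TPM, used for levels between genes. The expected counts (10.9% of the values were not whole) were rounded and fitted with edgeR 4.0.16 in R 4.3.3: TMM scaling, filterByExpr with a minimum count of 10 and a minimum total of 15, a quasi-likelihood test with 1 coefficient for each of the 7 groups over all 21 libraries, and Benjamini-Hochberg adjustment over 15230 genes at 0.05. SE is the log2 fold change divided by the square root of F. CPM are counts scaled to TMM-adjusted library sizes. The fits were tested on simulated data.

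The labels call the replicate numbers a batch, so they pair the libraries. Deviations from group means correlated at 0.156 on average over 63 pairs with the same number and at -0.0778 over 126 other pairs. Replicates of a group differed by more than sampling noise (chi-square per degree of freedom 17.5 to 155). Depth was 35087180 to 70421576 counts. Alternatives were DESeq2 1.42.0, DESeq2-type size factors, no filter, a replicate block, only the groups compared, library sizes without collagen, and each library left out.

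Coordinates come from GENCODE vM21 (all 44 members matched by ID) and promoters from a RefSeq table on GRCm38.p6. Named members were Col1a1, Col1a2, Col3a1, the highest gene of each class, the 5 largest called differences per comparison with at least 5 CPM and no overlap, every member called in a difference of effects, and, in each list, the 2 genes of smallest p. Other members are given by count or as examples chosen after their values were seen. The members and all lists were chosen with earlier results of these data known.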

Additional observations from a re-analysis of the deposited data

Results flagged for a closer look

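For 5 members the effect of siRNA against Hsp90aa1 differed between CAF with vehicle and NF with TGFβ1 by a test of the difference itself (edgeR, adjusted p under 0.05). On the log2 scale the difference, CAF minus NF, was 1.42 for Col7a1, 1.10 for Col8a1, 0.77 for Col5a2, 0.69 for Col12a1 and -3.01 for Col24a1. Col7a1 was lower by -1.68 in NF and not called in CAF (-0.26), while Col8a1 and Col5a2 were higher in CAF by 0.99 and 0.56 and not called in NF (-0.11 and -0.21). Col24a1 had 7 counts over the 3 NF control libraries and 102 over the 3 NF knockdown libraries, and 77 and 115 over the matching CAF libraries. Line and TGFβ1 treatment cannot be told apart in this contrast.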

How the results depend on the processing

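With the replicate number as a block, siRNA against Hsp90aa1 came with 8 members higher and 7 lower in NF with TGFβ1 and 13 higher and 1 lower in CAF, and siRNA against Hsp90ab1 with 1 higher in NF. The block gave 9 lower for the Hsp90aa1 against the Hsp90ab1 pool in NF and 10 higher in CAF, and 10 higher and 2 lower for the difference of the Hsp90aa1 effects; it added 36 calls on single members and ended none. Fitting only the groups compared gave 9 higher for Hsp90aa1 in NF, 0 higher for Hsp90ab1 in CAF and 2 lower for the difference of the Hsp90aa1 effects. Without a filter 1 member was higher with the Hsp90ab1 pool in NF, as with DESeq2, and 3 were higher for the pools compared in CAF, as with DESeq2-type size factors. Leaving collagen out of the library sizes kept all 125 calls, and no call on a member was reversed in any of these fits. With 1 library left out the members higher and lower were 22 to 24 and 5 (CAF against NF), 17 to 19 and 4 to 6 (TGFβ1) and 18 to 19 and 10 to 11 (CAF against NF with TGFβ1). They were 3 to 5 and 1 to 7 (Hsp90aa1 in NF), 4 to 9 and 0 (Hsp90aa1 in CAF), 0 and 0 (Hsp90ab1 in NF) and 0 to 1 and 0 (Hsp90ab1 in CAF). For the pools compared they were 4 to 6 and 3 to 7 in NF and 3 to 6 and 0 to 1 in CAF, and for the differences of effects 3 to 5 and 1 (Hsp90aa1) and 0 and 0 (Hsp90ab1). The cause of these changes was not tested. As a percent of all counts, which does not correct for transcript length, the collagen share averaged 1.21, 2.96, 2.94 and 3.04 in the NF groups (vehicle, TGFβ1, and TGFβ1 with the Hsp90aa1 or Hsp90ab1 pool) and 6.33, 8.23 and 6.96 in the CAF groups (control, Hsp90aa1, Hsp90ab1). Depth limits the members with few counts in a library, such as Col24a1, Col25a1 and Col8a2 in some groups, for which counts are given.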
